A study of Mus musculus with 8 samples.

Results

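The RNA of 9 cytokine genes, Il10, Ebi3, Il12a, Ifng, Il2, Il4, Il16, Areg and Fgl2, was followed across 8 sequencing libraries of sorted mouse spleen CD4 T cells. They were chosen by name as cytokines of regulatory T (Treg) and helper T cells, and are 9 of the 54837 genes in the count table. All mice carried Foxp3-eGFP-Cre-ERT2, in which the Foxp3 gene drives green fluorescent protein and a Cre recombinase that tamoxifen activates, and all received tamoxifen on 5 consecutive days. Mice of 2 groups also carried FSF-TIM-3, a transgene for TIM-3, and their cells were sorted as TIM-3+ and FLAG+. Of these, GFPhi (3 libraries) was GFP+ and FoxP3+, and GFPlow (3 libraries) was GFP- and FoxP3-. WT (2 libraries) came from mice lacking FSF-TIM-3 and was sorted as TIM-3- and FLAG- but GFP+ and FoxP3+, so the transgene and the TIM-3 gate cannot be told apart in comparisons with WT. Ages are not given in the labels. Nothing in the labels says that libraries of a group came from separate animals, so p-values measure the spread between these libraries. Part of that spread may be technical, although sex-linked genes, given below, differed between libraries within each transgenic group.

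Treg cells restrain other lymphocytes partly through secreted proteins. IL-10, the product of Il10, dampens antigen-presenting and effector cells. Ebi3 encodes a subunit that pairs with the p35 protein of Il12a to form IL-35, or with the p28 protein of Il27 to form IL-27. Fgl2 encodes a fibrinogen-like protein that Treg cells secrete and that binds inhibitory Fc receptors, and Areg encodes amphiregulin, a growth factor for tissue repair. Ifng and Il4 are the signature cytokines of T helper 1 and T helper 2 cells. IL-2, from Il2, is the growth factor that conventional T cells make and that Treg cells consume through the receptor chain of Il2ra. FoxP3 is known to repress Il2. Il16 encodes a precursor that is cleaved to release a ligand of CD4.

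Total counts ran from 44446215 to 55388756 per library, and abundances are given as CPM, counts scaled to a common library size by TMM. The 9 general T cell markers summed to 8582 to 14270 CPM in every library. Foxp3 ran from 60.1 to 80.9 CPM in GFPhi, from 1.97 to 4.82 CPM in GFPlow, and was 41.7 and 63.2 CPM in WT libraries 1 and 2. Havcr2, the TIM-3 gene, ran from 1077 to 1791 CPM in GFPhi and from 127 to 538 CPM in GFPlow, and was below 1 CPM in WT. Foxp3 and TIM-3 were gated on, so these values only check the labels. Havcr2 did not overlap between GFPhi and GFPlow, so its level and the Foxp3 state cannot be told apart in that comparison. WT library 1 stood apart, with 6.54% mitochondrial and 15.2% ribosomal protein counts (at most 2.78% and 6.97% elsewhere) and 18599 genes with a count (at least 21248 elsewhere). Of the sex-linked genes, Xist ran from 0.187 to 237 CPM in GFPhi and from 0 to 184 CPM in GFPlow. The Y-linked Ddx3y ran from 0 to 200.5 CPM in GFPhi and from 0 to 228.5 CPM in GFPlow. The libraries of each transgenic group were thus not all of the same sex, so not all from the same animal. Sex was not modelled. WT library 2 held Xist at 242 CPM together with Ddx3y at 6.15 CPM, while in the other 7 libraries Xist was at most 0.263 CPM wherever Ddx3y was counted. Each value against WT therefore rests on 2 unlike libraries. The CPM of the members is given for each of them, while some other WT values are means of both.

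Of the 9 genes, 8 passed the filter on low counts and were tested among 18851 genes. Il12a had 0 counts in all 8 libraries. The filter asks for enough counts in 2 libraries, and Il10 met it only through the transgenic groups. Tests were edgeR's two-sided quasi-likelihood test on all 8 libraries, with Benjamini-Hochberg adjustment over all genes tested and a threshold of 0.05.

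Between GFPhi and GFPlow, Ebi3 was the only member past the threshold, at 7.51-fold more CPM in GFPhi. Areg and Fgl2 had higher values in every GFPhi library, Il2 had lower ones, and Il10, Ifng, Il4 and Il16 overlapped between the groups. Among all genes, 2.26% passed in this comparison against 1 of 8 members. Libraries of the groups did not overlap for 4 of 8 members and 30.0% of all genes, with 3 members higher in GFPhi (16.0% of all genes) and 1 lower (14.0%). At an unadjusted p under 0.05 there were 4 members and 11.6% of all genes.

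Against WT, Ebi3 was lower in GFPlow, 1 of 8 members where 3.30% of all genes passed. GFPlow and WT did not overlap for 5 members (40.3% of all genes), 2 higher in GFPlow (21.1%) and 3 lower (19.2%), and 4 members had an unadjusted p under 0.05 (25.0%). Between GFPhi and WT edgeR called 0 members and 0 genes of any kind (0%), while DESeq2 called 320 of the 2039 genes to which it gave an adjusted p, which included only 1 of the 8 members (Il16, 0.309). In that comparison 2 members had an unadjusted p under 0.05 (13.7% of all genes), and 1 member did not overlap (28.1%), with 1 higher in GFPhi (15.6%) and 0 lower (12.6%). Il10 was at 0 and 21 counts in WT and at 162 to 472 counts in the 6 transgenic libraries, a difference that missed the threshold in both comparisons.

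**Figure D1:**
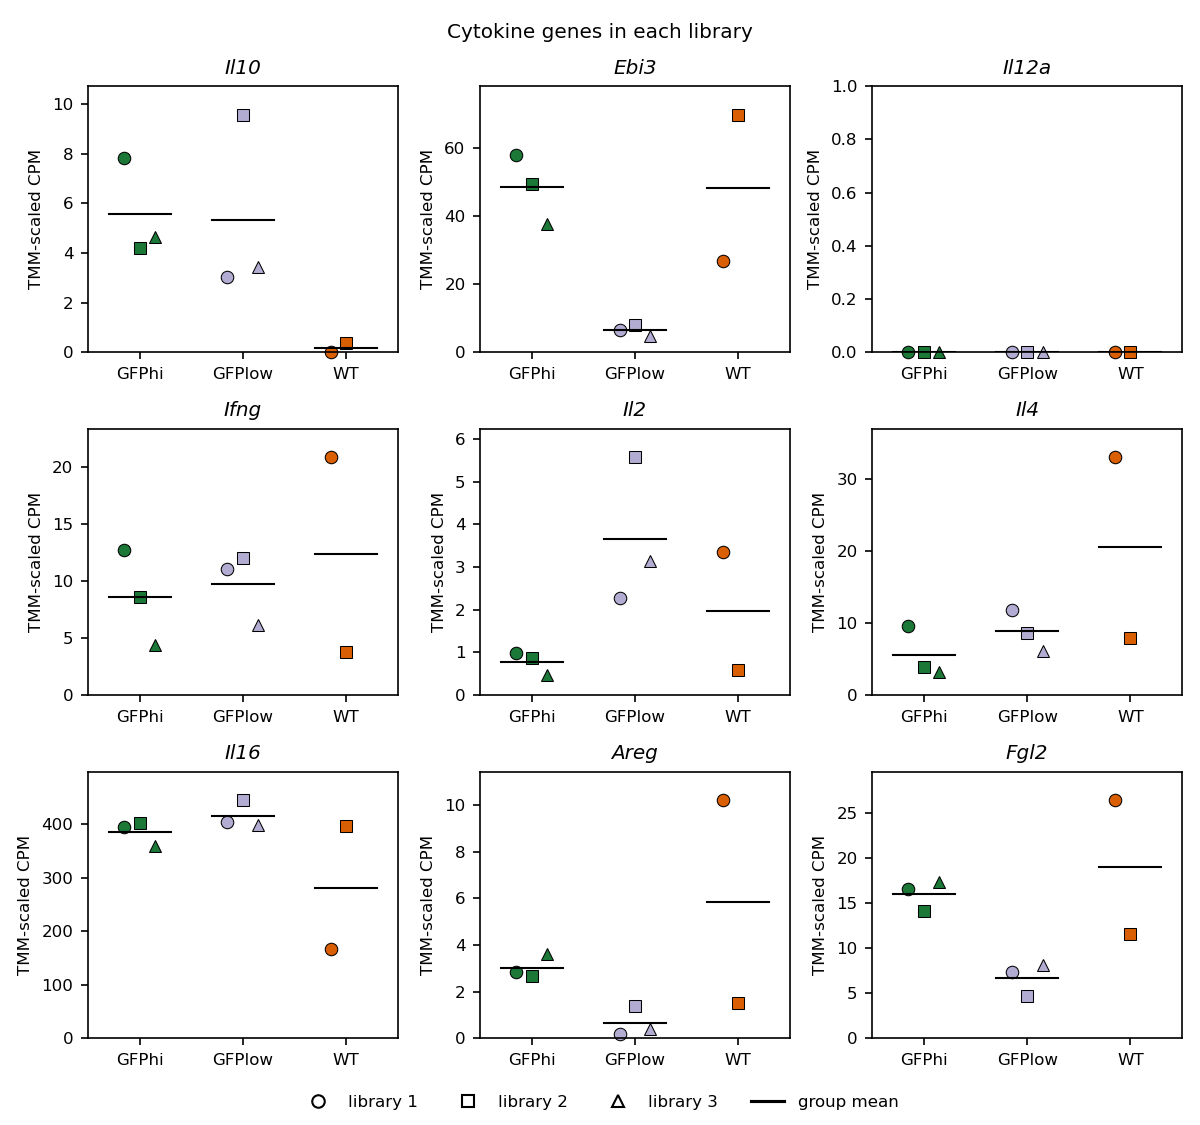
Each panel plots one gene, with the abundance in TMM-scaled CPM on a linear axis from 0 and the 3 groups side by side. Symbols are single libraries and bars are group means. Ebi3 is low in all 3 GFPlow libraries (at most 8.02 CPM), Il10 is near 0 in WT (at most 0.362 CPM), and the 2 WT libraries lie far apart for most genes.

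The sequences just before the start sites of Ebi3, Areg, Fgl2 and Il2 are shown because these are the 4 genes whose GFPhi and GFPlow libraries did not overlap. Each is the 250 bases before the RefSeq start (GRCm38.p6), 5′ to 3′ on the gene's strand. The window of Ebi3 is chr17:55952373-55952622 (plus strand), that of Areg chr5:91139349-91139598 (plus), that of Fgl2 chr5:21372423-21372672 (plus) and that of Il2 chr3:37125955-37126204 (minus). Capitals mark matches, on either strand, to the NFAT core GGAAA, the AP-1 motif TGANTCA, the forkhead motif GTAAACA or the STAT motif TTCNNNGAA.
Ebi3: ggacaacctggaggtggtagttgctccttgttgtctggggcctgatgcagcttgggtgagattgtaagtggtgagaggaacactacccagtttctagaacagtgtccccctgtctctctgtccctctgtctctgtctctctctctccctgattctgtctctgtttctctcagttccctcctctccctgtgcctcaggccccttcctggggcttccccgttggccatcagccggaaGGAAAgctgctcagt
Areg: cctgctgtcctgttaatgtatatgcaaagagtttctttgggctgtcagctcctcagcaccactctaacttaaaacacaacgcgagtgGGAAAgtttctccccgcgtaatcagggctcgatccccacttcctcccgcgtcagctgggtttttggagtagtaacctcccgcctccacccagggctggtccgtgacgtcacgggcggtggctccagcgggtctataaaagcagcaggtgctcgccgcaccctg
Fgl2: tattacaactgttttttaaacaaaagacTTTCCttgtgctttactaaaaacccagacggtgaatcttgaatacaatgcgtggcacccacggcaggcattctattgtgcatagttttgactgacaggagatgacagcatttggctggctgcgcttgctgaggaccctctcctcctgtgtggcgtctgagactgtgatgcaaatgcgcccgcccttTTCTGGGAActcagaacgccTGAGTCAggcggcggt
Il2: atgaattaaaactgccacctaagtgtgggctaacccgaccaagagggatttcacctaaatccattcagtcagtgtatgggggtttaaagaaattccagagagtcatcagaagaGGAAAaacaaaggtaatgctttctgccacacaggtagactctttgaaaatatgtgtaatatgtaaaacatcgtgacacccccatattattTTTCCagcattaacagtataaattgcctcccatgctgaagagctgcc

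Every one of the 4 windows held the NFAT core, which 55.6% of all 32851 RefSeq windows of this length hold. The Il2 window held 2 copies and the others 1. Fgl2 was the only one of the 4 with an AP-1 match, at 16 bases before its start (6.75% of all windows), and with a STAT match, at 36 bases (7.02%). None of the 4 held the forkhead motif, which 3.17% of all windows hold, and no matches overlapped. RefSeq windows were found for 8 of the 9 members, other than Il10. The gene coordinates given below are from GENCODE and can differ from RefSeq. The windows of Fgl2 and Il2 reach past the GENCODE starts at 21372642 and 37125959, and the AP-1 match of Fgl2 lies past that start. A match is a match of letters and not a measured binding site.

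Il10 (ENSMUSG00000016529, GRCm38 chromosome 1, 131019845 to 131024974, plus strand) was counted 418, 224 and 252 times in GFPhi libraries 1 to 3 and 162, 472 and 178 times in GFPlow. WT library 1 had 0 counts and WT library 2 had 21. In CPM this was 7.83, 4.22 and 4.67 in GFPhi, 3.03, 9.59 and 3.45 in GFPlow, and 0 and 0.362 in WT. All 6 transgenic libraries lay above both WT libraries, while GFPhi and GFPlow covered the same range.

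The log2 fold change of Il10 was 4.78 ± 1.15 (SE, adjusted p = 0.348) for GFPhi against WT and 4.73 ± 1.14 (adjusted p = 0.0713) for GFPlow against WT by edgeR. The 2 comparisons share the WT libraries. Against WT library 2 alone, mean Il10 CPM was 15.4-fold higher in GFPhi (3.94 ± 0.91 on the log2 scale, adjusted p = 0.911) and 14.8-fold higher in GFPlow (3.88 ± 0.91, adjusted p = 0.0502). Against WT library 1 alone it was at least 57.3-fold and at least 55-fold higher, with a floor of 3 counts in that library (0.0973 CPM), a limit that covers counting error only. With WT library 1 as the only WT library, its spread is assumed to be that of the other groups, and 40.1% of all genes passed for GFPhi and 43.9% for GFPlow, Il10 among them (adjusted p = 0.00175 and 0.0016). Of the 3243 genes within 2-fold of Il10 in WT library 2 (0.181 to 0.724 CPM), 37.5% had no count in WT library 1. GFPhi and GFPlow differed in Il10 by 0.06 ± 0.79 (adjusted p = 1).

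GFPlow library 2 had the highest Il10 of all libraries. The same library held 2888 counts of Il21, a cytokine of follicular helper cells, against at most 461 in any other library. It also held 1156 counts (23.5 CPM) of Jchain, a plasma cell gene, against at most 2.38 CPM elsewhere. Of the other plasma cell markers, Sdc1 had at most 1 count and Mzb1 at most 20 counts in any GFPlow library. The 4 plasma cell markers summed to 135 CPM in GFPlow library 2. They summed to 112 and 118 CPM in GFPlow libraries 1 and 3, and to 159 to 190 CPM in GFPhi. Most of these sums was Xbp1, with means of 171 CPM in GFPhi and 113 CPM in GFPlow. In GFPhi, Jchain, Sdc1 and Mzb1 averaged 0.391, 0.464 and 0.0312 CPM. In bulk RNA, fewer cells of a type and less RNA per cell cannot be told apart, and the part of other cells in the Il10 value was not tested.

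Ebi3 (ENSMUSG00000003206, chromosome 17, 55952640 to 55957022, plus strand) was at 57.8, 49.5 and 37.8 CPM in GFPhi, at 6.63, 8.02 and 4.67 CPM in GFPlow, with 26.8 and 69.8 CPM for WT libraries 1 and 2. GFPlow lay below every other library, and the GFPhi values lay between those of the WT libraries. The mean was 48.4 ± 10.1 CPM for GFPhi (SD, n = 3) and 6.44 ± 1.69 CPM for GFPlow (SD, n = 3). By edgeR the log2 fold change was 2.91 ± 0.40 (SE, adjusted p = 0.0105) for GFPhi against GFPlow and -2.91 ± 0.42 (adjusted p = 0.0115) for GFPlow against WT, while GFPhi against WT gave 0.00 ± 0.41 (adjusted p = 1).

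The call of Ebi3 between GFPhi and GFPlow was lost by edgeR without GFPhi library 1, GFPhi library 2, GFPlow library 1 or GFPlow library 3 (adjusted p 0.0538 to 0.0617, log2 fold change 2.72 to 2.93). It had an adjusted p of 0.000372 when only the libraries of both groups were fitted. Against WT the call was lost without GFPlow library 1 (-2.93, adjusted p = 0.0619) or 3 (-2.72, 0.0553), with only the libraries compared (-2.91, 0.0962) and by limma voom (-2.99, 0.0765), at folds close to the -2.91 of all libraries. It was -3.43 without WT library 1 (adjusted p = 0.000753) and -2.03 without WT library 2 (adjusted p = 0.000726), and GFPhi against WT was then -0.53 and 0.88 (adjusted p 0.955 and 0.068). The predicted gene Gm16712 overlaps Ebi3 exons on the minus strand, and the strand setting of the counting is not given, so reads of these 2 genes cannot be told apart. Gm16712 itself ran from 2.91 to 4.33 CPM in GFPhi and from 0.0387 to 0.792 CPM in GFPlow.

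Neither partner of Ebi3 was found at a comparable level. Il12a, on chromosome 3 (68690644 to 68698547), had no count, which allows at most 3 counts per library, or 0.0517 to 0.0973 CPM. Il27 was counted at most 12 times in a library and had counts in 4 of the 8 libraries. Il12b, which encodes the p40 partner of p35 in IL-12, had no count in any library, and Il23a, whose product pairs with p40, had at most 12 counts.

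Fgl2 (ENSMUSG00000039899, chromosome 5, 21372642 to 21378374, plus strand) was at 16.6, 14.2 and 17.3 CPM in GFPhi, at 7.38, 4.69 and 8.10 CPM in GFPlow, with 26.5 and 11.5 CPM for WT. All GFPlow libraries lay below all others, and GFPhi lay between the WT libraries. GFPhi exceeded GFPlow by 1.25 ± 0.35 on the log2 scale (edgeR adjusted p = 0.151), and GFPlow differed from WT by -1.50 ± 0.39 (adjusted p = 0.0837), or by -0.77 ± 0.31 without WT library 1 (adjusted p = 0.227). Fgl2 is also a macrophage gene. The 8 monocyte or macrophage markers summed to 1.69 to 26.4 CPM in GFPhi, 6.46 to 237 CPM in GFPlow, with 9.25 and 32 CPM for WT. Lyz2, a macrophage enzyme, reached 197 CPM in GFPlow library 3. The part of macrophages in the Fgl2 values was not tested.

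Areg (ENSMUSG00000029378, chromosome 5, 91139599 to 91148432, plus strand) was counted 152, 141 and 194 times in GFPhi, 10, 67 and 19 times in GFPlow, and 315 and 87 times in WT. In CPM the GFPhi libraries held 2.85, 2.65 and 3.59, GFPlow held 0.187, 1.36 and 0.368, and WT held 10.2 and 1.5. GFPlow was again the lowest group without overlap, and the GFPhi values were tightly grouped between the WT values. The log2 fold change was 2.25 ± 0.88 (adjusted p = 0.355, edgeR) for GFPhi against GFPlow and -3.19 ± 0.96 (adjusted p = 0.113) for GFPlow against WT. Without WT library 1 the latter was -1.23 ± 0.89 (adjusted p = 0.545). Of the 6 mast cell or basophil markers, cells known to make amphiregulin, 4 defining ones (Mcpt8, Fcer1a, Ms4a2 and Prss34) had no count in any library. The list summed to 2.26 to 3.09 CPM in GFPhi, 3.18 to 5.34 CPM in GFPlow, with 15.4 and 3.22 CPM for WT libraries 1 and 2. Type 2 innate lymphoid cells are another source of amphiregulin. The summed CPM of their 5 markers was, like Areg, higher in all GFPhi than in all GFPlow libraries. It was 239 to 303 CPM in GFPhi and 140 to 145 CPM in GFPlow, with 185 and 248 CPM for WT. Il1rl1, Klrg1 and Gata3 were each higher without overlap. Rora (means 58.3 CPM in GFPhi and 64.4 in GFPlow) and Il17rb (3.12 and 2.80 CPM) overlapped. Il1rl1, the IL-33 receptor, and Klrg1 were called higher in GFPhi than in GFPlow (2.61 ± 0.46 and 2.65 ± 0.51, edgeR adjusted p 0.029 and 0.0384), and Treg cells can express both. The part of other cells in the Areg values was not tested.

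Il2 (ENSMUSG00000027720, chromosome 3, 37120523 to 37125959, minus strand) was counted 53, 46 and 26 times in GFPhi, 122, 274 and 162 times in GFPlow, and 103 and 34 times in WT. It was at 0.993, 0.866 and 0.482 CPM in GFPhi, at 2.28, 5.57 and 3.14 CPM in GFPlow, with 3.34 and 0.586 CPM for WT. Il2 thus ran opposite to Ebi3, Fgl2 and Areg, with GFPlow above all GFPhi libraries and above WT library 2. Only GFPlow library 2 lay above WT library 1. GFPhi against GFPlow gave -2.23 ± 0.71 (edgeR adjusted p = 0.21), and GFPlow against WT gave 0.91 ± 0.78 (adjusted p = 0.473) with WT library 1 and 2.64 ± 0.77 (adjusted p = 0.0999) without it.

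Ifng (ENSMUSG00000055170, chromosome 10, 118441046 to 118445892, plus strand) was at 12.8, 8.60 and 4.43 CPM in GFPhi, at 11.0, 12.0 and 6.12 CPM in GFPlow, with 20.9 and 3.83 CPM for WT. The groups overlapped, and the WT libraries held the highest and the lowest value of all 8. The log2 fold change was -0.18 ± 0.63 for GFPhi against GFPlow, -0.52 ± 0.70 for GFPhi against WT and -0.34 ± 0.70 for GFPlow against WT (edgeR adjusted p 0.704 to 1). The values against WT were 1.17 and 1.35 without WT library 1 (adjusted p 0.955 and 0.308) and -1.25 and -1.08 without WT library 2 (adjusted p 0.0976 and 0.142). The predicted gene Gm49751 overlaps Ifng exons on the same strand and was at 1.54 CPM or less.

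Tbx21, which encodes the T-bet factor that activates Ifng, did differ: its mean was 17.0 ± 1.46 CPM in GFPlow (SD, n = 3) and 6.04 ± 1.54 CPM for GFPhi (SD, n = 3), with 1.59 and 1.77 CPM for WT. It was lower in GFPhi than in GFPlow (-1.49 ± 0.27, adjusted p = 0.0295) and above WT in GFPlow (3.33 ± 0.34, adjusted p = 0.00379) by edgeR. Ifng overlapped between all these groups.

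Il4 (ENSMUSG00000000869, chromosome 11, 53602982 to 53618669, minus strand) was at 9.63, 3.88 and 3.17 CPM in GFPhi, at 11.9, 8.57 and 6.16 CPM in GFPlow, with 33.0 and 8.0 CPM for WT. WT library 1 held 1018 counts, more than any other library (171 to 636). The log2 fold change was -1.88 ± 0.67 for GFPhi against WT (edgeR adjusted p = 0.348) and -0.53 ± 0.61 without WT library 1 (adjusted p = 0.982). GFPhi against GFPlow gave -0.67 ± 0.61 (adjusted p = 0.908). Gata3, the T helper 2 factor that Treg cells also use, was at 86.7 CPM on average in GFPhi, 55.4 in GFPlow and 85.9 in WT, so GFPlow held the lowest mean of Gata3 but not of Il4.

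Il16 (ENSMUSG00000001741, chromosome 7, 83642825 to 83745726, minus strand) was at 394, 402 and 360 CPM in GFPhi, at 405, 445 and 398 CPM in GFPlow, with 166 and 396 CPM for WT libraries 1 and 2. It made up 78.4% to 92.6% of the summed CPM of the 9 genes outside WT library 1 and 57.9% within it. In the other 7 libraries its values ran from 360 to 445 CPM, and GFPhi differed from GFPlow by -0.11 ± 0.29 (edgeR adjusted p = 1). Without WT library 2, against WT library 1 alone, Il16 was higher in GFPhi (1.24, adjusted p = 3.46e-05) and in GFPlow (1.35, adjusted p = 2e-05), in the fit with the assumed spread that called 40.1% and 43.9% of all genes. Without WT library 1 the values were -0.04 and 0.08. Exons of Stard5 and 2310044K18Rik overlap those of Il16 on the plus strand, at 30.8 to 47.9 CPM and at most 1.09 CPM.

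**Figure D2:**
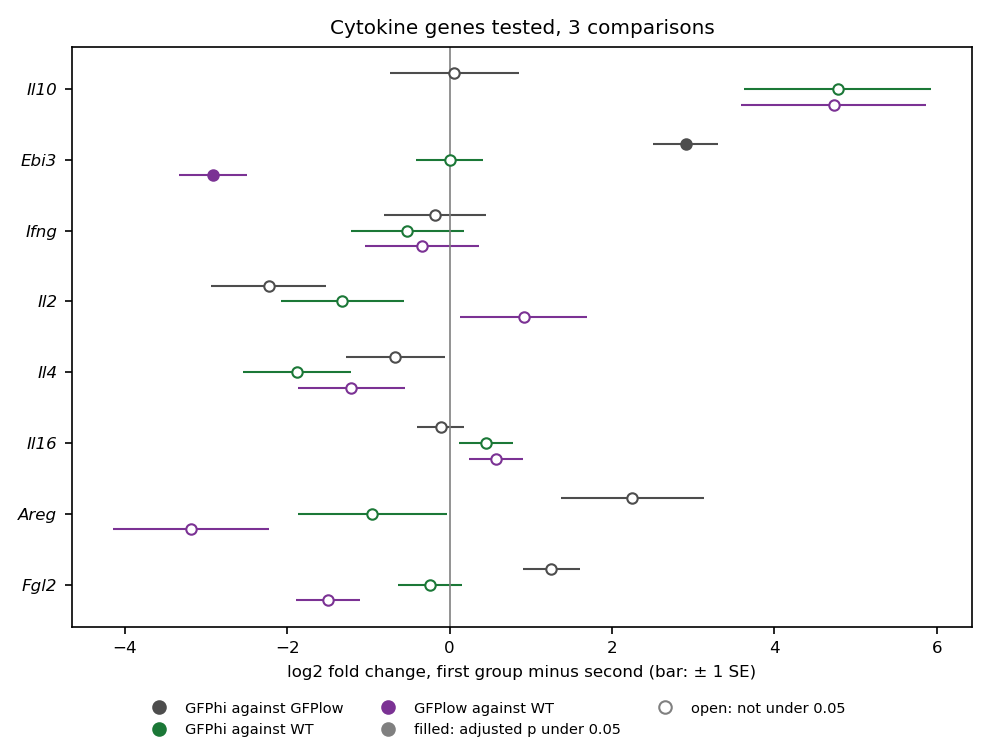
Points are log2 fold changes of the 8 tested genes in the 3 comparisons, first group minus second, with bars of 1 SE. Filled points passed an adjusted p of 0.05, which only Ebi3 did (2.91 and -2.91). The points of GFPhi against WT include 0 within their bars for Ebi3, Ifng and Fgl2.

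Levels of different genes can be compared per exon length. In GFPhi, Il16 (49.0 CPM per kb) and Ebi3 (41.9) led and overlapped each other, and every other member was at 6.64 CPM per kb or less. Ifng, Il4, Il10 and Fgl2 followed, each overlapping its neighbour, and Areg (2.5) and Il2 (0.682) stood below them without overlap. In GFPlow, Il16 (52.9 CPM per kb) was alone at the top, and Ebi3 (5.58) stood among Ifng, Il4 and Il10. There Il2 (3.20) ranked above Fgl2 (1.77), with overlapping values, and Areg (0.526) was the lowest detected member. In WT, Ebi3 (41.8) and Il16 (35.8) overlapped, as did each further neighbour down to Il2 (1.72), and Il10 (0.138) was the lowest detected member.

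**Figure D3:**
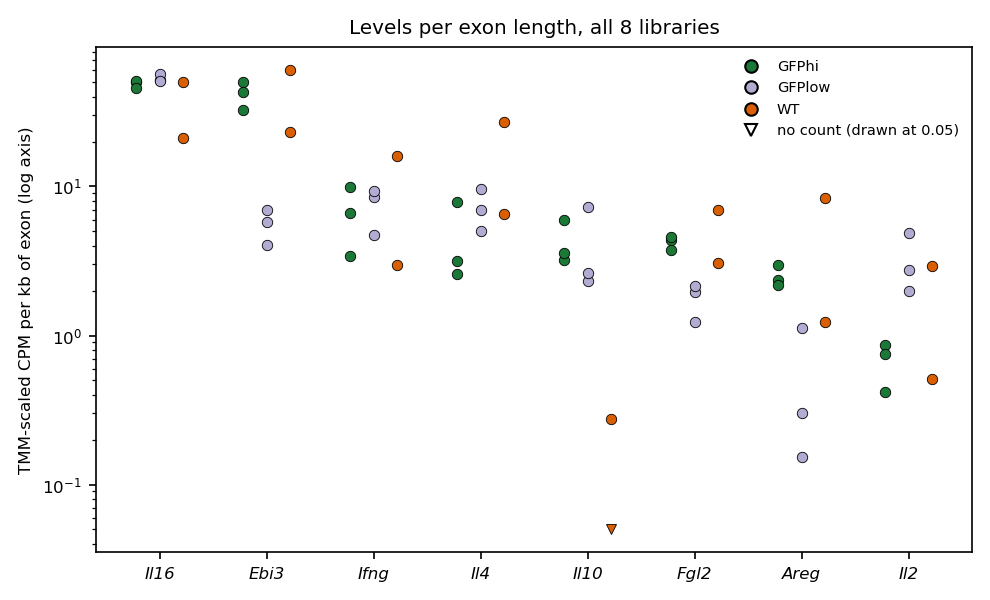
Each point is the level of a gene in one library, in TMM-scaled CPM per kb of exon on a log axis, coloured by group. Il16 and Ebi3 lie above the other genes in GFPhi (49.0 and 41.9 on average), Ebi3 is lower in GFPlow (5.58), and the triangle marks the WT library without an Il10 count.

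Apart from Il16, the members summed to 71.4 to 109 CPM in GFPhi, 32.0 to 49.8 CPM in GFPlow, with 121 and 95.6 CPM for WT libraries 1 and 2. Ebi3 made up 52.9% to 59.0% of this sum in GFPhi and 14.6% to 16.1% in GFPlow. In WT its share was 22.2% in library 1 and 73.0% in library 2. WT library 1 was the highest of all 8 libraries for Ifng, Il4, Areg and Fgl2 and the lowest for Il10 and Il16.

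Of the 16 differences of members from WT, 8 changed sign without WT library 1, none of them past the threshold with or without it. For GFPhi against WT, Ifng moved from -0.52 to 1.17, Areg moved from -0.95 to 1.01, Il16 from 0.45 to -0.04, Il2 from -1.32 to 0.41, Fgl2 from -0.24 to 0.47 and Ebi3 from 0.00 to -0.53 on the log2 scale. For GFPlow against WT, Ifng moved from -0.34 to 1.35 and Il4 from -1.21 to 0.16. Of the tested members, 3 passed between GFPhi and GFPlow without WT library 1, with 9.66% of all genes tested called, 0 between GFPhi and WT (0%), and 1 between GFPlow and WT (5.88%).

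The 3 members called between GFPhi and GFPlow in that fit were Ebi3, Fgl2 (adjusted p = 0.0135) and Il2 (adjusted p = 0.0255), the last lower in GFPhi. The same 3 passed when only the libraries of both groups were fitted by edgeR, with Fgl2 at 0.0122 and Il2 at 0.0201, a fit in which 12.3% of all genes passed. Without WT library 2 also 3 members passed (9.64% of all genes).

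Among the 18 receptor genes of these cytokines, 17 were tested. Between GFPhi and GFPlow 2 were higher in GFPhi and 0 lower (1.63% and 0.626% of all genes), between GFPlow and WT 0 were higher and 1 lower in GFPlow (1.08% and 2.23%), and 0 passed between GFPhi and WT. The median log2 fold change was -0.11, 0.30 and 0.28, beside 0.01, 0.02 and 0.08 over all genes. Il2ra, the chain that gives the IL-2 receptor its high affinity, averaged 577 ± 30.9 CPM for GFPhi (SD, n = 3) and 11.7 ± 4.49 CPM for GFPlow (SD, n = 3), with 517 and 662 CPM for WT. Il2ra was higher in GFPhi than in GFPlow by 5.63 ± 0.35 (edgeR adjusted p = 0.00103). Il2rb, its signalling chain, was at 509 ± 75.2 CPM in GFPhi, 129 ± 12.3 CPM in GFPlow, with 165 and 506 CPM for WT, and was higher in GFPhi than in GFPlow by 1.98 ± 0.38 (adjusted p = 0.0379). GFPlow libraries thus held more Il2 counts and less Il2ra and Il2rb RNA than GFPhi libraries, though Il2 itself missed the threshold. Il2rg, another chain of the receptor, overlapped between these groups, with means of 1008 CPM in GFPhi and 1082 CPM in GFPlow (-0.10 ± 0.18).

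Both chains of the IL-10 receptor had higher values in all GFPhi than in all GFPlow libraries and missed the threshold. Il10rb averaged 84.7 CPM in GFPhi, 52.6 in GFPlow and 83.6 in WT, and differed between GFPhi and GFPlow by 0.69 ± 0.15 (edgeR adjusted p = 0.0559). Il10ra was at 59.8, 51.2 and 67.4 CPM in GFPhi, 33.1, 25.5 and 37.0 CPM in GFPlow, with 6.81 and 44.3 CPM for WT (0.90 ± 0.55 between GFPhi and GFPlow, adjusted p = 0.682). Il12rb1, a chain of the IL-12 receptor, averaged 18.4 CPM in GFPhi, 7.03 in GFPlow and 9.87 in WT (1.39 ± 0.34 between GFPhi and GFPlow, adjusted p = 0.0978).

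Genes induced by IL-2 and IL-10 signals gave 2 of 7 called higher and 0 lower in GFPhi than in GFPlow (1.63% and 0.626% of all genes). In GFPlow against WT 0 were higher and 2 lower (1.08% and 2.23%), and 0 passed between GFPhi and WT (0%). The medians were 0.48, -0.08 and 0.59, beside 0.01, 0.02 and 0.08 over all genes. Cish, a feedback inhibitor induced through STAT5, was at 233 ± 15.0 CPM in GFPhi, 32.8 ± 9.15 CPM in GFPlow, with 85.9 and 223 CPM for WT. Socs2, of the same inhibitor family, was at 90.3 ± 10.3, 7.95 ± 5.66, and 156 and 97.2 CPM. By edgeR both were higher in GFPhi than in GFPlow (Cish 2.83 ± 0.37, adjusted p = 0.00931, and Socs2 3.50 ± 0.49, adjusted p = 0.011). Socs3, a target of IL-10 in myeloid cells, was at a mean of 38.1 CPM in GFPhi and 39.8 in GFPlow, with 16.0 in WT (adjusted p at least 0.11 in every comparison). Pim1, a kinase gene induced through STAT5, had a smallest adjusted p of 0.0707.

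Genes of the interferon gamma response gave 1 of 17 called higher and 0 lower in GFPhi than in GFPlow (1.63% and 0.626% of all genes). In GFPlow against WT 0 were higher and 2 lower (1.08% and 2.23%), and 0 passed between GFPhi and WT (0%). The medians were 0.47, -0.49 and 0.30, beside 0.01, 0.02 and 0.08 over all genes. Gbp3, an interferon-induced GTPase, was at 108 ± 11.7 CPM in GFPhi, 31.4 ± 4.21 CPM in GFPlow, and 103 CPM in each WT library. It was higher in GFPhi than in GFPlow (1.78 ± 0.17, edgeR adjusted p = 0.003). Cxcl10, an interferon-induced chemokine, was at 7.16 ± 0.0747 CPM in GFPlow, 32.6 ± 12.2 CPM in GFPhi, with 85.1 and 20.6 CPM for WT, and was lower in GFPlow than in WT (-2.88 ± 0.56, adjusted p = 0.0337). Iigp1 and Psmb8, also interferon-induced, had smallest adjusted p of 0.0588 and 0.148, and for Ifng itself the smallest was 0.704.

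Of 18 transcription factor genes that act on cytokine loci, 1 was higher and 1 lower in GFPhi than in GFPlow (1.63% and 0.626% of all genes). In GFPlow against WT 3 were higher and 2 lower (1.08% and 2.23%), and 0 passed between GFPhi and WT (0%). The medians were 0.50, 0.16 and 0.54, beside 0.01, 0.02 and 0.08 over all genes. Besides Tbx21, Eomes, its T-box relative, was above WT in GFPlow (8.42 ± 1.68 CPM against 0.292 and 0.259, 4.93 ± 0.66, edgeR adjusted p = 0.0083). Ahr, a ligand-activated factor that can drive Il10, was at 19.3 ± 2.12 CPM in GFPhi, 7.05 ± 1.17 CPM in GFPlow, with 20.5 and 17.0 CPM for WT. It was higher in GFPhi than in GFPlow (1.45 ± 0.23, adjusted p = 0.0156), groups between which Il10 overlapped. Runx3, a factor of cytotoxic and T helper 1 cells, averaged 33.2 CPM in GFPlow and was above WT by 1.67 ± 0.34 (adjusted p = 0.0409). Batf, a factor of effector Treg cells, was lower in GFPlow than in WT (-1.15 ± 0.23, adjusted p = 0.0397). Eomes is also a marker of NK cells, whose 6 markers summed to 33.6 to 73.6 CPM in GFPlow, 2.35 to 6.30 CPM in GFPhi, with 12.4 and 1.84 CPM for WT. This sum includes Eomes itself, and in GFPlow Klrb1c and Klrd1 averaged 17.5 and 16.0 CPM. All 403 counts of Ncr1 and all 144 counts of Klra8 in GFPlow lay in 1 library. NK cells can make interferon gamma, and their part in these values was not tested.

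Among 21 other cytokine genes, 10 were tested, 5 had no count in any library (Il12b, Il3, Il9, Il17a and Il24), and the remaining 6 had at most 17 counts in a library. Lta, which encodes lymphotoxin alpha, was the only one called, so 1 was higher and 0 lower in GFPhi than in GFPlow (1.63% and 0.626% of all genes). In GFPlow against WT 0 were higher and 1 lower (1.08% and 2.23%), and 0 passed between GFPhi and WT (0%). The medians were 0.80, -0.37 and 0.24, beside 0.01, 0.02 and 0.08 over all genes. Lta was at 200 ± 18.2 CPM in GFPhi, 44.7 ± 3.05 CPM in GFPlow, with 214 and 231 CPM for WT. By edgeR it was higher in GFPhi than in GFPlow by 2.16 ± 0.16 (adjusted p = 0.00139) and lower in GFPlow than in WT (-2.31 ± 0.17, adjusted p = 0.00125). Csf1, a macrophage growth factor, averaged 9.34 CPM in GFPhi, 2.18 in GFPlow and 7.66 in WT (2.1 ± 0.59 between GFPhi and GFPlow, adjusted p = 0.145). Il21 was at 2.14, 1.41 and 8.54 CPM in GFPhi, at 5.92, 58.7 and 7.61 CPM in GFPlow, with 1.52 and 0 CPM for WT (adjusted p at least 0.154). The signature cytokine genes of T helper 17 and T helper 2 cells other than Il4 (Il17a, Il17f, Il22, Il5 and Il13) were among those not tested.

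Of the 4 genes that process or release these proteins, 0 passed in any comparison. Adam17, the sheddase of amphiregulin, averaged 68.4 CPM in GFPhi, 56.5 in GFPlow and 51.9 in WT, and Rhbdf2, which escorts it to the cell surface, 7.14, 13.9 and 2.47 CPM in the same order. The WT mean of Rhbdf2 covers libraries at 0.26 and 4.69 CPM. Adam10, a related sheddase, averaged 101, 81.5 and 123 CPM.

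**Figure D4:**
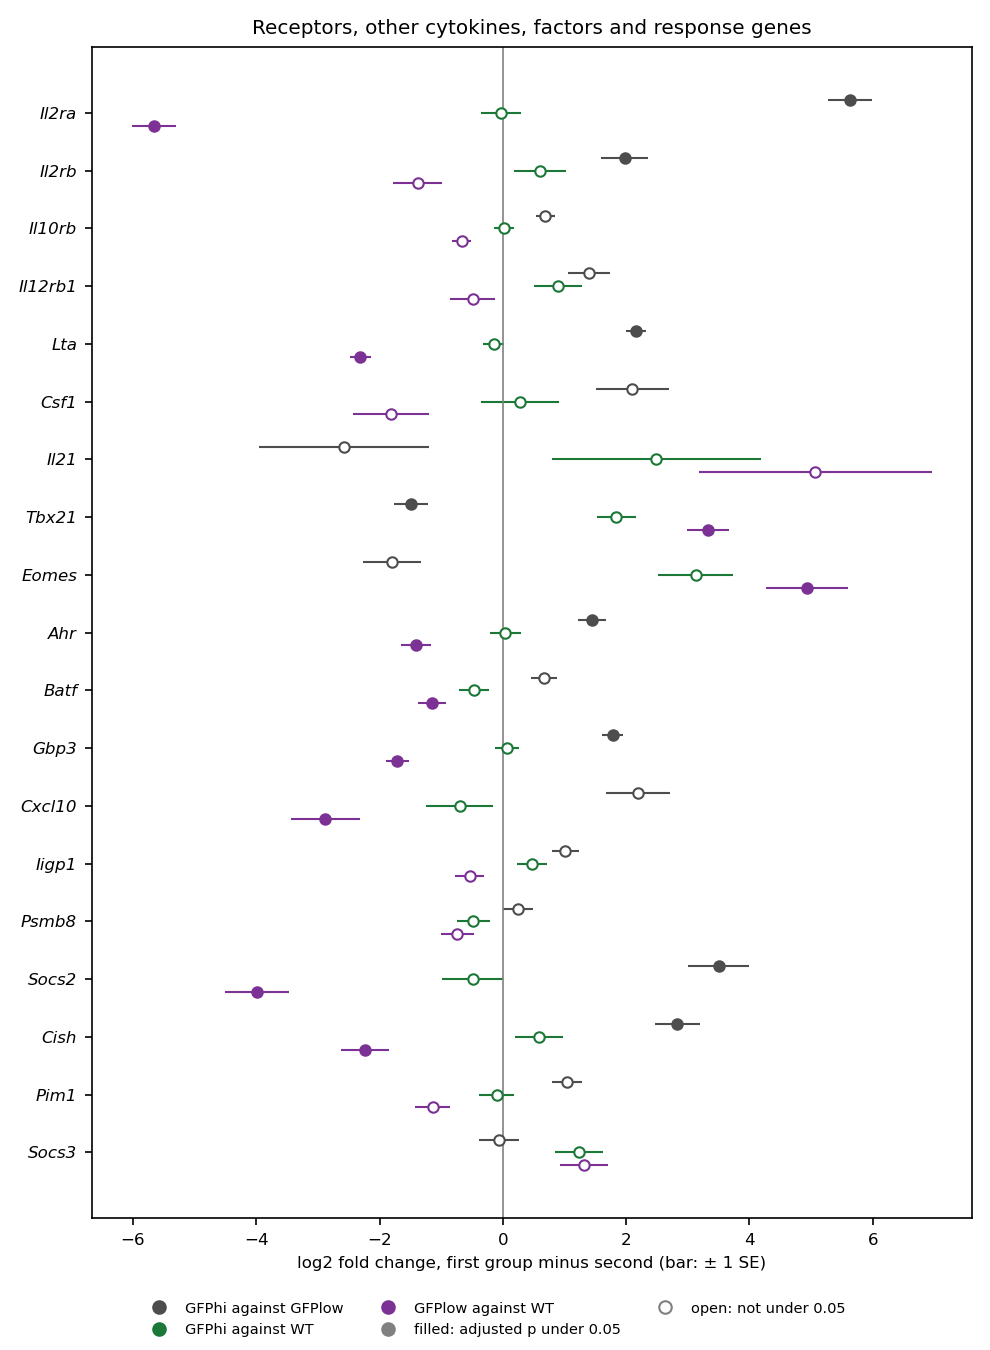
Log2 fold changes in the 3 comparisons, first group minus second with bars of 1 SE, for the named receptor, cytokine, factor and response genes other than Il6. Filled points passed an adjusted p of 0.05, among them Il2ra (5.63), Socs2 (3.50), Cish (2.83) and Lta (2.16) for GFPhi against GFPlow, and no point of GFPhi against WT did.

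Il6, the fourth named cytokine of that list, had no count in GFPlow, at most 40 counts in GFPhi and 46 and 27 counts in WT. The B cell markers Pax5 and Ebf1 were at 0 in both WT libraries, and Pax5 was also at 0 in GFPhi but had 34, 78 and 1 counts in GFPlow. Cd79b, a chain of the B cell receptor, went the way of Ebi3: it averaged 45.9 CPM in GFPhi and 5.95 CPM in GFPlow, with 70.4 and 50.5 CPM for WT, and was called between GFPhi and GFPlow (2.95 ± 0.50, edgeR adjusted p = 0.0238) and between GFPlow and WT (-3.34 ± 0.53, adjusted p = 0.0161). Its partner chain Cd79a was at 0.62 to 3.41 CPM in the 8 libraries. The B cell list, which other antigen-presenting cells share through Cd74, summed to 148 to 168 CPM in GFPhi, 21.0 to 30.6 CPM in GFPlow, with 131 and 183 CPM for WT. The sum moved with Ebi3, a gene B cells can also express. Cd74 alone ran from 104 to 116 CPM in GFPhi, from 15.1 to 18.8 CPM in GFPlow, and was 57.4 and 130 CPM in WT libraries 1 and 2. The part of B cells in the Ebi3 values was not tested. Dendritic cell markers summed to 4.15 to 9.37 CPM over the 8 libraries and neutrophil markers to 0.0172 to 12.1 CPM.

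The likeness of other genes to each member was described by Pearson's r of log2 CPM over the 8 libraries, among 9544 genes. The 8 points share groups and include the unlike WT library 1. Ebi3 was most like Tiam1, a guanine exchange factor (r = 0.999), and Izumo1r, a folate receptor family gene of Treg cells (r = 0.997). Il10 was most like Med16 (0.989) and Maz (0.986), Fgl2 like Ppa1 (0.976) and Eif1ad (0.974), and Areg like Gcsh (0.964). Il2 was most like Zfp386 (0.959) and Ostf1 (0.942), Ifng like Mrps34 (0.949) and Skp2 (0.939), Il4 like Hist1h1c (0.968) and Gtf3c2 (0.955), and Il16 like Tut7 (0.999) and Ercc4 (0.995). Without WT library 1 the lowest of these values was 0.86, for Ercc4 with Il16.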

How the data were processed

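The authors deposited 1 table of raw counts per Ensembl gene for the 8 libraries, with no normalization. Per the labels' protocols, cells went from the sorter straight into lysis buffer, and the Nextera XT and SMART-Seq HT kits were used. In the submitters' processing notes stand build GRCm38 and the tools edgeR, HISAT2 2.1.0, HTSeq 0.11.2, R 4.0 and SAMtools 1.9. What each did, and which annotation and strand setting were used, is not given in the sources used here. Of 54837 identifiers, 54808 were matched to GENCODE vM21 (GRCm38).

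Genes were kept by filterByExpr over the 3 groups and scaled by TMM. A single edgeR 4.0.16 quasi-likelihood fit (robust, 1 mean per group, 5 residual degrees of freedom) gave all tests, adjusted by Benjamini-Hochberg. Log2 CPM used a prior count of 2, and levels per kb used the union of exons. DESeq2 1.42.0 and limma 3.58.1 gave alternatives, in R 4.3.3 and Python 3.11.15.

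The members and gene lists were chosen with earlier results of these data known. All 9 members are named, up to 4 genes per pathway list with the smallest adjusted p, defining or abundant markers of other cells, and for each member the 2 genes most like it (mean log2 CPM above 1). Gata3, Runx3, Il10ra, Il1rl1, Klrg1, Cd79a, Cd79b, Jchain, Lyz2, Cd74 and the overlapping genes were chosen after their values were seen. Some genes that this rule names are not reported here. Counts without molecular identifiers overstate molecules.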

Additional observations from a re-analysis of the deposited data

How the results depend on the processing

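Between GFPhi and GFPlow, 426 genes were called by edgeR on all libraries. The count was 1375 by DESeq2, 2271 by limma voom, 182 with the replicate number as a block, 2105 with only the libraries of both groups, 1752 with those and the replicate block, and 3242 by DESeq2 without WT library 1. Leaving out 1 library gave 105 to 1984. For GFPhi against WT (0) it was 1 with no filter, 320 by DESeq2, 70 by DESeq2 without WT library 1, and 0 to 8234 leaving out 1 library, the highest against WT library 1 alone. For GFPlow against WT (623) it was 3243 by DESeq2, 72 by voom, 158 with the replicate block, 33 with only the libraries compared, 2444 by DESeq2 without WT library 1, and 213 to 9002 leaving out 1 library, again highest against WT library 1 alone.

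Counts of members are to be read beside the counts of all genes for the same setting. Between GFPhi and GFPlow these were 426 of 18851 by edgeR on all libraries, 1375 of 18802 by DESeq2 and 2271 of 18851 by voom. With only the libraries of both groups 2105 of 17056 genes were called. Between GFPlow and WT they were 755 of 28881 with no filter, 759 of 10595 at 5 CPM and 3243 of 17705 by DESeq2. Of the 8 members, 1 was called between GFPhi and GFPlow. There were 3 by DESeq2, 4 by voom, 3 with only the libraries of both groups, 3 with those and the replicate block, 4 by DESeq2 without WT library 1, and 0 to 3 leaving out 1 library. For GFPhi against WT (0) there was 1 by DESeq2 without WT library 1, which was Il10 (3.94, adjusted p = 0.000355), and 0 to 4 leaving out 1 library, while DESeq2 on all libraries gave an adjusted p to only 1 of the 8. For GFPlow against WT (1) there were 2 with no filter, 2 with a filter of 5 CPM in 2 libraries, 4 by DESeq2, 0 by voom, 0 with the replicate block, 0 with only the libraries compared, 3 by DESeq2 without WT library 1, and 0 to 6 leaving out 1 library. With the replicate block the Ebi3 value was -2.65 (adjusted p = 0.0503). With 1 WT library left out, the other was assumed to vary like the other groups. The cause of these differences was not tested.

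No called member changed sign under an alternative. Upper-quartile scaling moved the median of all genes from 0.02 to -0.12 for GFPlow against WT and from 0.08 to -0.05 for GFPhi against WT. Same-numbered GFPhi and GFPlow libraries deviated together with r of 0.067, 0.066 and 0.149, so the numbers were not taken as pairs. Each library nevertheless correlated best with its own number. In both groups library 3 was also the only one with high Xist (237 CPM in GFPhi and 184 CPM in GFPlow). Pairing by mouse thus remains possible, and the replicate block with only both groups gives the values under it. DESeq2 on 7 libraries and the block with only both groups were chosen after seeing the data.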
